A study of Aspergillus nidulans with 12 samples.

Results

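The cadmium response of the *A. nidulans* reference strain THS30 was described here from 6 of the 12 RNA-seq libraries of the series, chosen by their labels as the 3 CdCl2-treated and the 3 untreated libraries of this strain. THS30 (pyrG89; AfupyrG+; pyroA4; pyroA+) is a prototrophic reference strain whose 2 auxotrophic markers were complemented, and it carries an intact *atfA* gene. Submerged cultures were 16 h old when CdCl2 was added to 0.2 mM, and mycelia were sampled 0.5 h later. The untreated cultures received no CdCl2 and were sampled at the same age. The other 6 libraries came from TNJ92 (pyrG89; AfupyrG+; pyroA4; ΔatfA::pyroA), a mutant without the stress-response transcription factor AtfA, with 3 CdCl2-treated and 3 untreated cultures. They were part of the model behind every test, and so entered the filter on low counts, the scaling and the estimate of spread. Their own values are described only for *atfA* and beside the largest changes of THS30. Each library is a biological replicate of whole mycelium, so fewer cells of a type and less RNA per cell cannot be told apart.

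Cadmium is a toxic metal that binds to thiol groups and takes the place of zinc and iron in proteins. Fungi are known to bind it with glutathione, cysteine-rich peptides and metallothioneins, to pump it out or into vacuoles, and to repair or degrade the proteins that it damages. These routes draw on sulfate uptake, on cysteine and glutathione synthesis, on metal transporters and on the protein folding and ubiquitin-proteasome systems.

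The 6 THS30 libraries held 8721119 to 12480895 gene counts. Levels are given as CPM, the gene count scaled to library size with TMM factors, and as RPKM, the same value per kilobase of transcript. Genes were ranked by level only in RPKM, while CPM was used to sort them into classes of level and for thresholds. The gene *atfA*, deleted in TNJ92, was between 17.3 and 27.4 CPM in all 6 TNJ92 libraries, and had 242, 232 and 242 CPM in CdCl2-treated THS30 and 357, 331 and 301 CPM in untreated THS30. THS30 CdCl2-treated replicate 3 stood closer to the untreated cultures than the other treated libraries did. For 70.7% of the up-regulated genes and 68.5% of the down-regulated genes it held the treated value closest to the untreated mean, and its median distance from that mean over the up-regulated genes was 0.47 on the log2 scale, against 0.64 and 0.62 in replicates 1 and 2. For down-regulated genes this distance was -0.44 in replicate 3 and -0.60 and -0.58 in the others. Of 7 conidiation and conidium genes tested, *brlA*, the gene of the regulator that starts conidiophore development, had 6.17, 7.57 and 5.40 CPM in treated cultures and 2.73, 1.70 and 3.00 CPM in untreated cultures. It rose, with 1.38 ± 0.25 as log2 fold change. Here and below, ± beside a log2 fold change is its standard error from the fit, with 3 libraries per group. The spore pigment laccase gene *yA* and the conidial catalase gene *catA* fell, with log2 fold changes of -0.70 ± 0.14 and -0.86 ± 0.21, and *abaA*, *wetA*, *vosA* and *rodA* did not pass the test. All 7 had at most 33.1 CPM in any of the 6 libraries, and their part in the other results was not tested.

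Of 9070 genes tested, 3986 (43.9%) were called at an adjusted p under 0.05, of which 2038 (22.5%) were up-regulated and 1948 (21.5%) down-regulated. For 1953 of the up-regulated and 1889 of the down-regulated genes, the treated and untreated libraries did not overlap, and among all tested genes the treated libraries lay all above the untreated ones for 27.9% and all below for 27.6%. Most changes were small. The median log2 fold change was 0.60 over the up-regulated and -0.55 over the down-regulated genes, and 0.00 over all genes. At least 1 on the log2 scale was reached by 425 genes that rose and 287 that fell, at least 2 by 89 and 32, and at least 3 by 23 and 4. Scaling by library totals alone raised the median of all genes to 0.13 and the share of calls that were up-regulated to 67.3%, against 51.1% with TMM, so the balance of rises and falls depends on the scaling, and fold changes here are relative to the median gene. Without treated replicate 3, 1820 genes were up-regulated and 2297 down-regulated.

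**Figure D1:**
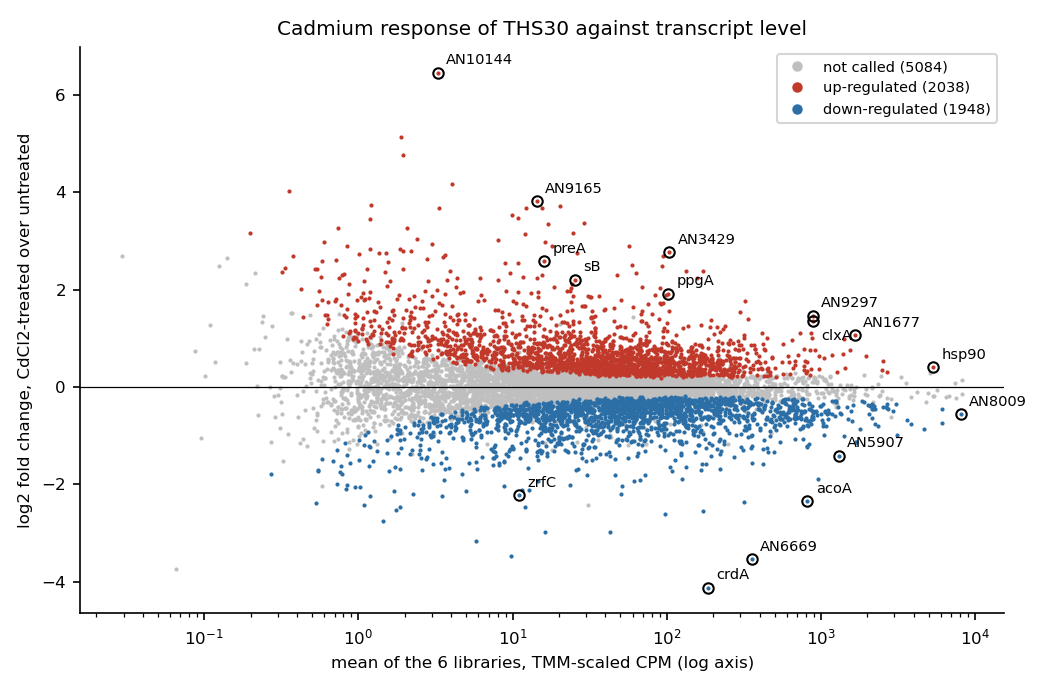
Log2 fold change of each tested gene (CdCl2-treated over untreated THS30, y axis) against its mean level over the 6 libraries in TMM-scaled CPM (x axis, log scale), coloured by call, with circles and names for genes described in the text. The largest rises lie at low levels. At 1000 CPM or more 13 of 144 genes rose and 60 fell, beside 22.5% and 21.5% of all tested genes.

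The balance of rises and falls differed between levels of expression. Among 2400 genes tested with a mean under 10 CPM, 463 rose and 281 fell (19.3% and 11.7%). Among the 144 genes with at least 1000 CPM, 13 rose and 60 fell (9.03% and 41.7%). Over all tested genes the shares were 22.5% and 21.5%. The genes that rose held 22.7, 22.3 and 19.4% of all counts in the treated libraries, against 13.2, 13.1 and 13.2% in the untreated ones. Those that fell held 27.5, 28.3 and 31.3% in treated libraries and 40.7, 39.6 and 39.6% in untreated ones. The calls define these groups of genes, so the shares describe their size in the libraries and are no further test. The median level in untreated cultures was 15.9 RPKM for genes that rose and 36.4 RPKM for genes that fell, against 17.9 RPKM for all tested genes.

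The 15 largest rises among genes with at least 10 CPM had log2 fold changes of 2.69 to 3.82, and none of them carries a gene symbol in the sources used. The rule that chose them required that treated and untreated libraries not overlap. *AN9165*, which the study's supplement places under nutrient starvation response, had 37.96, 29.5 and 13.2 CPM in treated cultures and 2.37, 1.87 and 1.54 CPM in untreated cultures. It had the largest log2 fold change of the set, 3.82 ± 0.48 (edgeR, adjusted p = 0.000121). Relative to their mean, its treated values were also the widest of the set, with replicate 3 lowest. *AN3491*, a predicted transmembrane transporter of the inp secondary metabolite cluster, had 46.7, 39.7 and 27.2 CPM in treated cultures and 3.20, 2.71 and 2.81 CPM in untreated cultures. Its log2 fold change was 3.71 ± 0.26 (edgeR, adjusted p = 1.21e-07), or 13.1-fold. All 15 genes had their lowest treated value in replicate 3. Without that library all 15 were still called, at log2 fold changes of 2.72 to 4.09.

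*AN6692* and *AN10325* followed, both with a log2 fold change of 3.68. *AN6692* had 26.4, 25.0 and 16.4 CPM in treated cultures and 1.304, 2.03 and 1.82 CPM in untreated cultures. *AN10325*, listed by the supplement under serine/threonine kinase terms, had 28.6, 34.3 and 23.8 CPM in treated cultures and 1.42, 2.37 and 2.81 CPM in untreated cultures. Their standard errors were 0.25 and 0.27, and the adjusted p from edgeR was 3.36e-08 for *AN6692* and 1.32e-07 for *AN10325*. *AN6802*, *AN7133*, *AN7116*, *AN5453* and *AN3970* have no annotation in the sources used and rose by log2 fold changes of 3.47 ± 0.25, 3.38 ± 0.27, 3.34 ± 0.18, 3.16 ± 0.29 and 3.14 ± 0.20. *AN7116* had 33.1, 35.4 and 24.1 CPM in treated cultures and 2.96, 3.05 and 3.09 CPM in untreated cultures, and the smallest standard error of the 15. *AN7133* had 65.6, 60.6 and 33.2 CPM in treated cultures and 4.98, 5.68 and 4.63 CPM in untreated cultures, with replicate 3 low among the treated libraries again.

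*AN0656*, whose product holds a methylase domain of the UbiE type, had 33.8, 35.5 and 17.5 CPM in treated cultures and 4.62, 2.97 and 3.63 CPM in untreated cultures, and a log2 fold change of 2.98 ± 0.32. *AN8402* followed at 2.90 ± 0.22. *AN10139*, placed by the supplement under translation initiation, had a log2 fold change of 2.89 ± 0.33, and its treated values ranged from 56.5 to 133 CPM. *AN3429* and *AN8366*, neither of which is annotated in the sources used, reached the highest levels of the 15 per length, with means of 164 and 107 RPKM in treated cultures and 24.1 and 16.6 RPKM in untreated cultures. *AN3429* had 221, 207 and 117 CPM in treated cultures and 26.0, 24.8 and 29.2 CPM in untreated cultures, a log2 fold change of 2.77 ± 0.23. *AN8366* had 178, 170.2 and 142 CPM in treated cultures and 28.7, 27.8 and 19.6 CPM in untreated cultures, a log2 fold change of 2.69 ± 0.20, and its treated libraries lay close together. *AN11043*, listed under N-acetyltransferase activity, rose at 2.74 ± 0.28. The next gene in this order, just outside the 15, was *preA*, the gene of a pheromone receptor, at 2.58 ± 0.15.

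**Figure D2:**
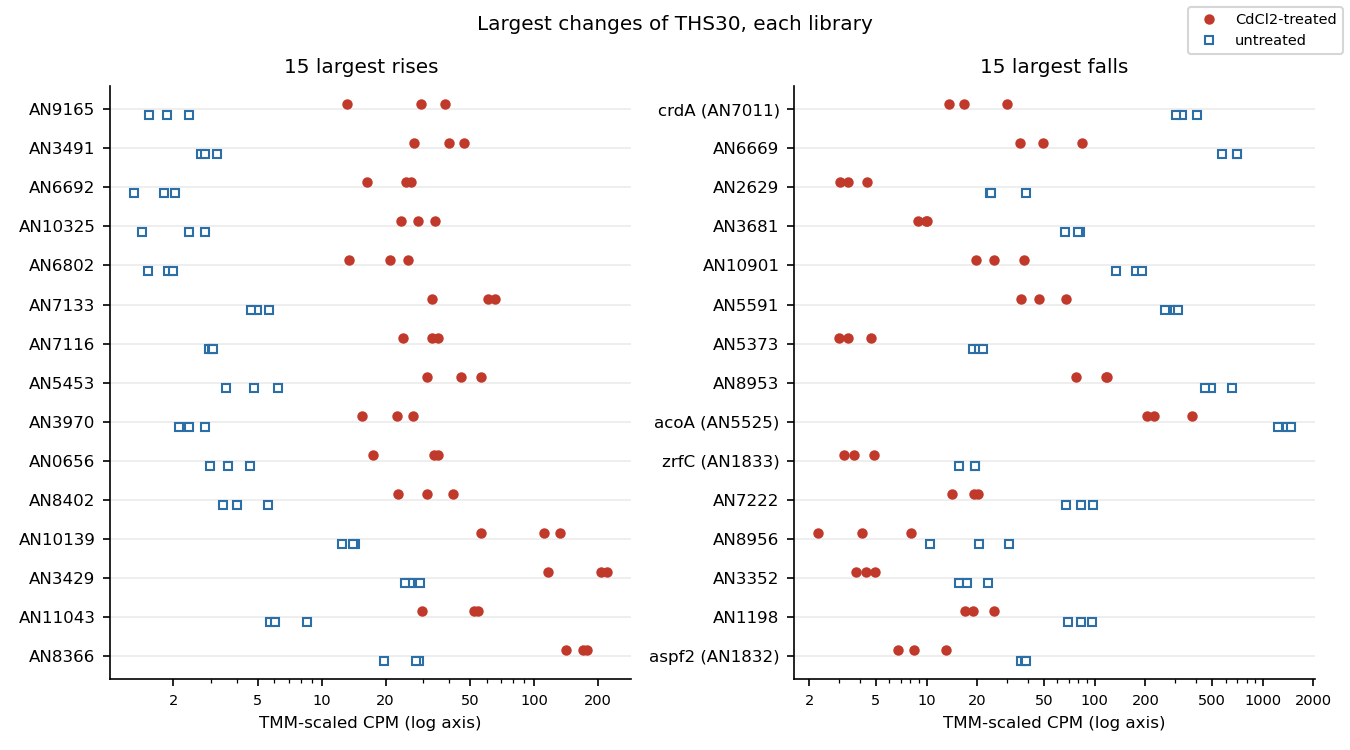
TMM-scaled CPM (x axis, log scale) of the 15 largest rises (left) and the 15 largest falls (right) among genes with at least 10 CPM, with 1 filled circle for each CdCl2-treated and 1 open square for each untreated THS30 library. Treated and untreated libraries do not overlap in any row, by the rule of choice, and the treated circle closest to the squares is replicate 3 in all 15 rises and in 12 of 15 falls.

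Larger rises were found at lower levels, where they rest on few reads. *AN10144* had 93, 93 and 45 counts in treated cultures and 0, 2 and 0 counts in untreated cultures (edgeR, adjusted p = 1.1e-06). *AN0343*, without annotation here, had 50, 56 and 26 counts in treated cultures, against 0, 1 and 2 in untreated cultures (edgeR, adjusted p = 2.08e-06). *AN3490*, a predicted acetyl CoA synthase of the inp cluster, had 61, 49 and 24 counts in treated and 3, 1 and 0 in untreated cultures (edgeR, adjusted p = 2.3e-05). The size of these changes is uncertain, since it depends on the 0 to 3 counts of the untreated libraries, and no fold is given. In the other direction, *AN8913* had 10, 22 and 25 counts in treated cultures, against 141, 197 and 224 in untreated cultures, a log2 fold change of -3.46 ± 0.35. *AN4180* and *AN20012* fell too, at -3.17 ± 0.48 and -2.75 ± 0.52.

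The inp cluster is known for making fellutamide B, a proteasome inhibitor. Its list holds 8 genes, of which 5 passed the filter on low counts and were tested. Of these 5, 3 rose and none fell, beside 22.5% and 21.5% of all genes. The median log2 fold change was 2.54, beside 0.00 over all genes. *AN3490*, with 3, 1 and 0 counts in untreated cultures, could pass that filter only through its reads in other libraries. The filter thus had a part in which members were counted, and the 3 rises and the median do not describe the whole cluster. The third member that rose was *AN3493*, predicted to code for a threonine-type endopeptidase and placed by the supplement among proteasome genes. It had 19.98, 15.8 and 9.46 CPM in treated cultures and 3.79, 2.29 and 1.91 CPM in untreated cultures, without overlap, and a log2 fold change of 2.54 ± 0.34 (edgeR, adjusted p = 5.86e-05). The nonribosomal peptide synthetase gene *inpB* (*AN3496*) had a log2 fold change of 0.79 ± 0.37 and *AN3497* of 0.20 ± 0.13, and neither passed the test. Without treated replicate 3 all 5 were up-regulated.

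The largest fall was that of *crdA* (*AN7011*), which codes for a cysteine-rich protein, and it was 17.4-fold. The gene had 13.6, 16.7 and 29.9 CPM in treated cultures and 407, 332 and 306 CPM in untreated cultures. Its log2 fold change was -4.12 ± 0.25 (edgeR, adjusted p = 5.84e-07). *AN6669* was the only other gene of these 15 past -3, with 36.0, 49.3 and 84.4 CPM in treated cultures and 698, 572 and 703 CPM in untreated cultures, and a log2 fold change of -3.54 ± 0.36. In both genes the treated library closest to the untreated ones was replicate 3.

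*AN2629* and *AN3681*, both without annotation here, had log2 fold changes of -2.99 ± 0.23 and -2.98 ± 0.14. *AN3681* had 8.86, 10.1 and 9.91 CPM in treated cultures and 81.9, 79.5 and 67.0 CPM in untreated cultures, and its treated libraries lay close together. *AN10901*, under C-1 compound catabolism in the supplement, had 19.6, 25.3 and 37.9 CPM in treated cultures and 133, 177 and 191 CPM in untreated cultures, and a log2 fold change of -2.60 ± 0.23. *AN1198*, a putative aminomethyltransferase of glycine metabolism under the same term, fell at -2.03 ± 0.15, with 16.9, 18.9 and 25.0 CPM in treated cultures and 69.7, 82.8 and 95.8 CPM in untreated cultures. *AN8953*, under starch and sucrose metabolism, had a log2 fold change of -2.36 ± 0.35. The unannotated genes *AN5591*, *AN5373*, *AN7222*, *AN8956* and *AN3352* were at -2.54 ± 0.19, -2.47 ± 0.32, -2.20 ± 0.20, -2.12 ± 0.63 and -2.11 ± 0.19. The call of *AN8956*, whose untreated libraries ranged from 10.4 to 30.9 CPM, was lost in 4 of the 6 fits that left out 1 library of THS30, with adjusted p of 0.0554 to 0.0834 from edgeR. The others of the 15 kept theirs.

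The aconitase gene *acoA* (*AN5525*), for the iron-sulfur enzyme that turns citrate into isocitrate in the TCA cycle, had the highest level of the 15 per length, with a mean of 99.3 RPKM in treated and 503 RPKM in untreated cultures. In CPM it had 204, 227 and 378 CPM in treated cultures and 1230.0, 1386 and 1476 CPM in untreated cultures. The log2 fold change was -2.34 ± 0.19 (edgeR, adjusted p = 7.47e-07), and the groups did not overlap. *zrfC* (*AN1833*), a zinc uptake transporter gene as known from *A. fumigatus*, had 3.21, 3.71 and 4.86 CPM in treated cultures and 15.6, 19.5 and 19.4 CPM in untreated cultures, and a log2 fold change of -2.22 ± 0.18. *aspf2* (*AN1832*), whose *A. fumigatus* counterpart codes for a secreted zinc-binding protein, had 6.78, 8.44 and 12.97 CPM in treated cultures and 36.4, 38.4 and 38.9 CPM in untreated cultures, a log2 fold change of -2.02 ± 0.16. Just outside the 15, *AN3520* stood at -1.93 ± 0.22.

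Some of these genes lie beside each other in the RefSeq annotation of assembly ASM1142v1, which was used for gene order only. *zrfC* and *aspf2* are adjacent and both fell. *AN1831* on the other side of *aspf2* was at -1.69 ± 0.25 (edgeR, adjusted p = 5.86e-05), with at most 3.18 CPM in any of the 6 libraries. *AN3490* and *AN3491* of the inp cluster are adjacent, and so are *AN10139* and *AN10144*, and the members of each pair rose together. *AN8953* and *AN8956* stand with 2 genes between them and both fell. The neighbour of *crdA*, *AN7010*, moved the other way. It had 132, 117 and 70.0 CPM in treated cultures and 18.97, 18.7 and 25.1 CPM in untreated cultures, without overlap, and a log2 fold change of 2.34 ± 0.25 (edgeR, adjusted p = 4.57e-05). *AN8403* beside *AN8402*, *AN8365* beside *AN8366* and *AN7115* beside *AN7116* rose as well, at 2.05 ± 0.29, 1.58 ± 0.25 and 1.65 ± 0.31. Against their partners, *AN11290* beside *AN10139* fell, at -1.71 ± 0.28, and *AN3351* beside *AN3352* rose, at 1.39 ± 0.31. These neighbours were picked after their values were seen. Of 18 tested genes that flank the 15 largest rises, 8 rose and 4 fell, beside 22.5% and 21.5% of all genes. Of 22 that flank the 15 largest falls, 3 rose and 8 fell. These falls include *zrfC* and *aspf2*, each counted as flank of the other, and the rises include *AN3490* and *AN10144*. These 4 genes had themselves been chosen for their changes, so the counts are no test. No strand setting is known for the counting, so reads of genes that overlap could not be told apart.

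Ranked by the change in RPKM, the 12 largest rises of abundant transcripts had log2 fold changes of only 0.39 to 1.46. *AN1677*, under sugar and polyol catabolism in the supplement, gained most, with 1855, 1741 and 1699.7 RPKM in treated cultures and 673, 906 and 955 RPKM in untreated cultures. It did not overlap between groups, and its log2 fold change was 1.06 ± 0.15 (edgeR, adjusted p = 3.48e-05). It was the only gene of at least 1000 CPM that rose by 1 or more on the log2 scale. Chaperone genes came next. *wos2* (*AN6921*), named for the fission yeast p23 co-chaperone of Hsp90, had 1830.4, 1731 and 1423 RPKM in treated cultures and 944, 997 and 1018 RPKM in untreated cultures. *hsp90* (*AN8269*) itself had 2210.0, 2171 and 1910.5 RPKM in treated cultures and 1405, 1588 and 1736 RPKM in untreated cultures. The log2 fold changes were 0.75 ± 0.11 for *wos2* and 0.41 ± 0.13 for *hsp90*, and the second was lost without treated replicate 2 or untreated replicate 1 (edgeR, adjusted p = 0.0515 and 0.0713).

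*AN9297*, without annotation here, had the largest fold change of these 12, with 614, 619 and 698 RPKM in treated cultures and 216, 235 and 249 RPKM in untreated cultures. The fold was 2.76 (log2 fold change 1.46 ± 0.09). The calnexin gene *clxA* (*AN3592*), for a chaperone of glycoproteins in the endoplasmic reticulum, had 707, 741 and 541 RPKM in treated cultures and 252, 250.1 and 276 RPKM in untreated cultures. *cdc48* (*AN7254*), for the ATPase that pulls ubiquitinated proteins out of membranes and complexes, had 721, 715 and 532 RPKM in treated cultures and 302, 329 and 357 RPKM in untreated cultures. The log2 fold changes were 1.36 ± 0.11 for *clxA* and 0.99 ± 0.13 for *cdc48*, and in both genes treated replicate 3 was the lowest of the treated libraries. *hem13* (*AN5130*), named for the yeast coproporphyrinogen oxidase of haem synthesis, had 1143, 1290.3 and 1455 RPKM in treated cultures and 729.9, 868 and 902 RPKM in untreated cultures, with replicate 3 the highest. *tpxA* (*AN10223*), a putative peroxiredoxin gene, had 1681, 1692 and 1594 RPKM in treated cultures and 1357, 1259 and 1164 RPKM in untreated cultures. *AN4742*, under translation initiation, was at 0.54 ± 0.08 on the log2 scale, and *AN11985*, *AN2488* and *AN7177*, without annotation here, were at 0.97 ± 0.12, 0.53 ± 0.10 and 1.11 ± 0.12.

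The 12 largest falls in RPKM were of transcripts with at least 1858 RPKM in untreated cultures. *AN20005*, which has no annotation here, lost most, with 4298, 3928 and 3427 RPKM in treated cultures and 6047, 5063 and 8416 RPKM in untreated cultures. The untreated libraries were spread widely, and the log2 fold change was -0.74 ± 0.16 (edgeR, adjusted p = 0.00112). *AN11489*, the most abundant transcript of both conditions, had 8593, 7425 and 9109.5 RPKM in treated cultures and 11878, 11029.7 and 9421 RPKM in untreated cultures. It has 168 bases and codes for a protein of unknown function, its treated and untreated libraries were close, and its log2 fold change of -0.36 ± 0.14 (edgeR, adjusted p = 0.0428) was lost under 6 of the alternatives. *AN8009*, without annotation here, had 4769, 4733 and 5762 RPKM in treated cultures and 7899, 7243 and 7292 RPKM in untreated cultures, a log2 fold change of -0.56 ± 0.12.

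The other 9 abundant falls included 4 genes with terms for mitochondria or sugar metabolism, chosen for description after their values were seen. *AN4064*, under mitochondrial inner membrane and mitochondrial transport, had 1869, 2204 and 2650.2 RPKM in treated cultures and 3523, 3534 and 3659 RPKM in untreated cultures. *AN1624*, under oxidative phosphorylation and electron transport, had 1510.0, 1633 and 2356 RPKM in treated cultures and 2634, 2982 and 2962 RPKM in untreated cultures. Their log2 fold changes were -0.67 ± 0.12 and -0.64 ± 0.14, and in both genes treated replicate 3 was closest to the untreated level. *AN5907*, under fructose and mannose metabolism, had 618, 687 and 795 RPKM in treated cultures and 1962, 1777 and 1835 RPKM in untreated cultures, the largest fold of the 12 at 2.65-fold. *AN5975* under the same term was at -0.99 ± 0.13 on the log2 scale. The glutamine synthetase gene *glnA* (*AN4159*) had 2953, 2999.7 and 3476 RPKM in treated cultures and 3885, 4514 and 4546 RPKM in untreated cultures, a log2 fold change of -0.46 ± 0.11. *AN6246*, *AN7170*, *AN10311* and *AN8781* are not annotated here and were at -1.17 ± 0.13, -0.76 ± 0.14, -1.21 ± 0.11 and -1.12 ± 0.13.

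**Figure D3:**
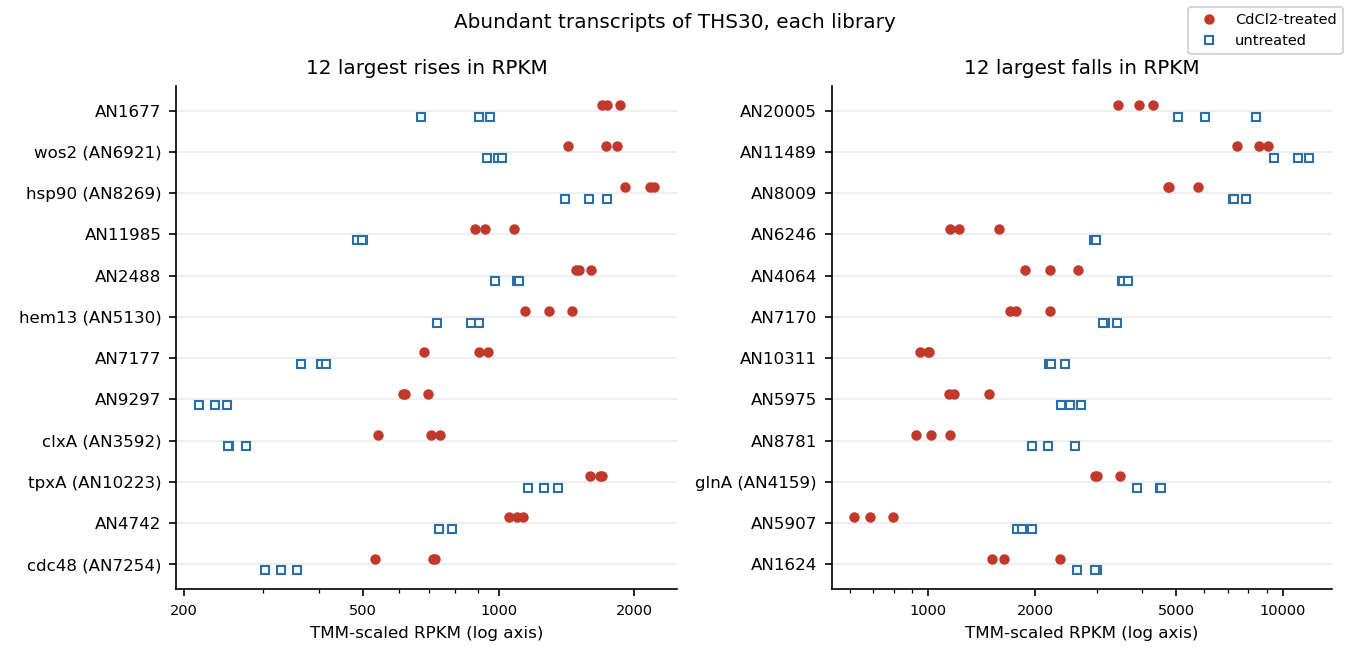
TMM-scaled RPKM (x axis, log scale) of the 12 largest rises (left) and 12 largest falls (right) in RPKM, with 1 filled circle for each CdCl2-treated and 1 open square for each untreated THS30 library. The treated circles lie above all squares of the same gene on the left and below them on the right, with the smallest gap at *AN11489*.

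The 10 transcripts with the highest mean RPKM in treated cultures were *AN11489*, *AN11787*, *AN2530*, *AN4575*, *AN8009*, *gpdA*, *AN2000*, *pdcA*, *AN1160* and *thiA*. Of these, *AN11489* and *AN8009* fell and the other 8 did not pass edgeR's test. DESeq2 called 4 of the 8, with log2 fold changes of -0.17 for *AN4575*, -0.21 for *gpdA*, -0.20 for *thiA* and 0.27 for *AN2000*. *AN2000* was also called with library totals, with the 6 THS30 libraries alone and with a replicate block, and *AN11787* under 3 alternatives (-0.47 to -0.32). Without treated replicate 3, *gpdA* and *thiA* were called by edgeR too, at -0.31 and -0.26. With library totals, *AN1160* and *pdcA* were called, at 0.33 and 0.26. *gpdA* (*AN8041*), for the glycolytic enzyme glyceraldehyde-3-phosphate dehydrogenase, had 4564 ± 324 RPKM in treated and 5234 ± 320.4 RPKM in untreated cultures (SD, n = 3 each). *AN2000*, under ubiquitination in the supplement, had 4487 ± 250.5 RPKM in treated and 3669.6 ± 57.8 RPKM in untreated cultures (SD, n = 3 each), without overlap of the libraries and with a log2 fold change of 0.29 ± 0.12 (edgeR, adjusted p = 0.0526). The pyruvate decarboxylase gene *pdcA* (*AN4888*) had 4383 ± 621 RPKM in treated and 3988 ± 188 RPKM in untreated cultures (SD, n = 3 each). In untreated cultures *AN20005*, *glnA* and *AN4218* stood among the 10 highest in place of *AN2000*, *pdcA* and *AN1160*. *AN11787* has only 263 bases, and levels per length are least certain for such short transcripts.

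Of 5 genes of folding in the endoplasmic reticulum, 4 rose and none fell, beside 22.5% up-regulated and 21.5% down-regulated over all genes, with a median log2 fold change of 0.68, and 3 rose when treated replicate 3 was left out. *clxA* was the first of them. The gene *pdiA* (*AN7436*), for protein disulfide isomerase, had 1222, 1299.6 and 998 CPM in treated cultures and 592, 569 and 600.4 CPM in untreated cultures, and the gene *bipA* (*AN2062*), for the Hsp70 of the endoplasmic reticulum, had 1865, 1914 and 1360.2 CPM in treated cultures and 1083, 1052 and 1081 CPM in untreated cultures. Neither overlapped, and the log2 fold changes were 1.00 ± 0.10 and 0.68 ± 0.12. *hacA* (*AN9397*), for the transcription factor of the unfolded protein response, rose at 0.31 ± 0.10, and the gene of its upstream sensor, *ireA* (*AN0235*), had a log2 fold change of -0.23 ± 0.12 that did not pass the test. Splicing of the *hacA* message, by which the factor is known to be activated, is not read by gene counts. Among 42 genes of transport between the endoplasmic reticulum and Golgi, 14 rose and 6 fell, against the same 22.5% and 21.5% of all genes, with a median of 0.14. With scaling by library totals 3 of them fell. The vesicle coat genes *sec23* and *sec13* led the rises at 0.78 ± 0.09 and 0.63 ± 0.08.

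Of 15 genes with a symbol for a proteasome subunit, 14 rose and none fell, at a median log2 fold change of 0.61, beside 22.5% of all genes called up-regulated. *rpn8* (*AN5121*), for a lid subunit, had 265, 259 and 209.9 CPM in treated cultures and 125, 124 and 121 CPM in untreated cultures. *rpt1* (*AN2917*), for an ATPase of the base, had 502, 486 and 372 CPM in treated cultures and 247, 249 and 253 CPM in untreated cultures. Their log2 fold changes were 0.99 ± 0.09 and 0.86 ± 0.11 (edgeR, adjusted p = 4.64e-07 and 8.45e-06). The core subunit genes, with *pre* and *pup* symbols, all rose, at log2 fold changes of 0.46 to 0.77. *rpt4* (*AN5747*) had 437, 394 and 334 CPM in treated cultures and 379, 315 and 297 CPM in untreated cultures, with overlap, and 0.23 ± 0.11 on the log2 scale. Without treated replicate 3 all 15 rose. The partners of *cdc48* moved with it, *npl4* at 0.64 ± 0.10 and *ddiA* at 0.80 ± 0.10. Of 9 cytosolic and mitochondrial chaperone genes, 4 rose, namely *wos2*, *hsp90*, *sti1* (*AN9124*), known in yeast as an Hsp90 co-chaperone (0.59 ± 0.12), and *ssz1* (*AN4616*), in yeast an Hsp70 at the ribosome (0.61 ± 0.10). *hsp70*, *hsp60*, *hsp78*, *hsp88* and *grpE* did not pass the test, at 0.09 ± 0.13, -0.05 ± 0.14, -0.35 ± 0.31, 0.25 ± 0.13 and 0.15 ± 0.08. These 3 lists of symbols were drawn up after the values had been seen, and their counts are descriptions.

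All 3 sulfate uptake genes rose. *sB* (*AN2730*), the sulfate permease gene, had 38.6, 43.99 and 42.1 CPM in treated cultures and 10.2, 9.07 and 7.90 CPM in untreated cultures, without overlap, which was 4.61-fold (log2 fold change 2.20 ± 0.19, edgeR, adjusted p = 4.48e-07). *AN0066* and *AN3157* were at 0.53 ± 0.09 and 0.32 ± 0.10. Of 3 genes for methionine and cysteine uptake, *AN1631* and *AN12483* rose, at 0.82 ± 0.18 and 0.70 ± 0.19. Of 11 genes of sulfate assimilation, 1 rose and 3 fell, beside 22.5% and 21.5% of all genes, with a median log2 fold change of -0.17, and the lists were not tested against each other. The ATP sulfurylase gene *sC* (*AN4769*), for the entry step, had 66.7, 71.0 and 98.8 CPM in treated cultures and 181, 162 and 166 CPM in untreated cultures. The APS kinase gene *sD* (*AN1194*), for the second step, had 78.3, 83.8 and 85.3 CPM in treated cultures and 149, 137 and 131 CPM in untreated cultures. Both fell, at -1.11 ± 0.13 and -0.75 ± 0.09, while *sA* (*AN4770*), for the PAPS reductase of the next step, rose, with 381, 376 and 439.7 CPM in treated cultures and 261, 281 and 289 CPM in untreated cultures and a log2 fold change of 0.53 ± 0.12. Without treated replicate 3 the list had 1 rise and 6 falls.

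Among 25 genes of cysteine and methionine metabolism, 7 rose and 8 fell, with a median of 0.04. These shares are to be set against 22.5% and 21.5% of all genes. The homocysteine synthase gene *cysD* (*AN8277*) rose, with 845, 889.8 and 859 CPM in treated cultures and 562, 542 and 533 CPM in untreated cultures. So did *mecA* (*AN5820*), for cystathionine beta-synthase, *mecB* (*AN1446*), for cystathionine gamma-lyase, and *metG* (*AN7051*), for cystathionine beta-lyase, at 0.62 ± 0.08, 0.41 ± 0.10 and 0.58 ± 0.09, beside 0.66 ± 0.09 for *cysD*. The methionine synthase gene *metH* (*AN4443*) fell instead, with 1459, 1651 and 1913 CPM in treated cultures and 2821, 2871 and 2802 CPM in untreated cultures and a log2 fold change of -0.76 ± 0.11, and *AN5019*, predicted to have the same activity, rose at 1.503 ± 0.24. Per length, *AN5019* averaged 5.43 RPKM in treated and 1.93 RPKM in untreated cultures, and *metH* 568 RPKM in treated and 961 RPKM in untreated cultures. The spermidine synthase gene *spdA* (*AN0687*) and *mde1* (*AN3593*), named for a yeast gene of methionine salvage, fell at -0.78 ± 0.10 and -1.11 ± 0.12.

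Of 6 glutathione degradation genes, 4 rose and 1 fell (22.5% and 21.5% over all genes), with a median of 0.31. *AN2988*, whose orthologs cleave glutathione as gamma-glutamylcyclotransferases, was at 0.83 ± 0.11, and *dugC* and *dugB* at 0.51 ± 0.10 and 0.37 ± 0.08. Of the 2 glutathione synthesis genes tested, *AN3150* had -0.20 ± 0.22 and did not pass the test, and *AN12476* fell at -0.32 ± 0.10. The call of *AN12476* was lost with library totals and without untreated replicate 1 (edgeR, adjusted p = 0.138 and 0.0589). The ABC transporter gene *AN7729*, with orthologs that carry glutathione conjugates, had 198, 190.1 and 155 CPM in treated cultures and 108, 105 and 118 CPM in untreated cultures, without overlap. Its log2 fold change was 0.71 ± 0.11, and that of *AN4517*, an *hmt1* ortholog named for the fission yeast phytochelatin transporter, was -0.09 ± 0.08 and did not pass the test. The direction of *AN4517* turned to 0.03 with scaling by library totals. *crpA* (*AN3117*), for the P-type metal efflux ATPase, had 619.5, 551 and 566 CPM in treated cultures and 344, 409.5 and 387 CPM in untreated cultures, a log2 fold change of 0.61 ± 0.11. *ygA* (*AN3624*), a related copper ATPase gene, had -0.19 ± 0.11 and did not pass the test. Without untreated replicate 1, *ygA* was called as a fall, at -0.31 (edgeR, adjusted p = 0.0296).

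Of 7 zinc transporter genes, none rose and 5 fell, with a median log2 fold change of -0.54, beside 21.5% of all genes called down-regulated. Besides *zrfC*, *zrfB* (*AN3799*) had 10.9, 11.1 and 18.6 CPM in treated cultures and 54.9, 45.9 and 41.1 CPM in untreated cultures, and *zrfD* (*AN10468*) had 12.0, 11.7 and 14.3 CPM in treated cultures and 29.4, 35.4 and 28.95 CPM in untreated cultures. Their libraries did not overlap, and the log2 fold changes were -1.80 ± 0.23 and -1.30 ± 0.12. *zrfA* (*AN8337*) and *AN1795* were called at -0.54 ± 0.21 and -0.31 ± 0.10 although their libraries overlapped, and 3 members of the list were called when library totals were used for scaling or when treated replicate 1, untreated replicate 2 or untreated replicate 3 was left out. Without treated replicate 3, 6 fell.

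Among 7 genes of iron regulation and siderophores, *sidC* (*AN0607*), for the synthetase of the intracellular siderophore ferricrocin, fell most, with 30.5, 30.9 and 28.9 CPM in treated cultures and 78.9, 93.8 and 75.7 CPM in untreated cultures and a log2 fold change of -1.46 ± 0.11 (edgeR, adjusted p = 1.21e-07). *sidD* (*AN6236*) and *hapX* (*AN8251*), for the regulator of iron starvation, fell at -0.69 ± 0.19 and -0.49 ± 0.12. The transporter gene *mirC* (*AN7485*) rose at 0.31 ± 0.10, a call that was lost in 4 of the 6 fits without 1 THS30 library. Of 44 genes for proteins with iron-sulfur clusters, 8 rose and 17 fell, beside 22.5% and 21.5% of all genes, with a median of -0.14. After *acoA*, the largest falls were those of *mcdB*, *sdh2* and *aifA*, at -1.37 ± 0.12, -1.29 ± 0.12 and -1.19 ± 0.09. *sdh2* (*AN2332*), for the iron-sulfur subunit of succinate dehydrogenase, had 151, 173 and 218 CPM in treated cultures and 392.5, 465 and 472 CPM in untreated cultures. The largest rises were *AN11251* at 3.03 ± 0.32, with at most 4.73 CPM, and *AN7567*, with orthologs that are glutathione disulfide oxidoreductases, with 199, 193 and 144 CPM in treated cultures and 78.1, 79.0 and 74.2 CPM in untreated cultures.

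Of 12 genes of the folate cycle, 6 rose and 5 fell, beside 22.5% and 21.5% of all genes, at a median of 0.03. The rises numbered 3 without treated replicate 2 or untreated replicate 2, and the falls 3 without treated replicate 1 or with library totals. *AN0495*, with a predicted formyltetrahydrofolate deformylase domain, had 181, 166 and 118 CPM in treated cultures and 46.7, 51.4 and 58.9 CPM in untreated cultures. *AN2998*, a multifunctional enzyme of one-carbon metabolism, had 161, 185 and 193 CPM in treated cultures and 401, 424 and 447 CPM in untreated cultures. The first was at 1.56 ± 0.14 and the second at -1.24 ± 0.09, and no library of either gene overlapped. Of 15 genes with symbols of amino acid synthesis, a list drawn up after the values had been seen, 7 rose and 5 fell. The ornithine carbamoyltransferase gene *argB* (*AN4409*) had 553, 532 and 375 CPM in treated cultures and 183, 178 and 195 CPM in untreated cultures, a log2 fold change of 1.39 ± 0.12, and the tryptophan genes *trpE* and *trpB* were at 1.03 ± 0.12 and 1.00 ± 0.13. *lysF*, for homoaconitase, which carries an iron-sulfur cluster, fell at -0.87 ± 0.12.

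Of 5 mating type and pheromone genes, 4 rose in these vegetative cultures, beside 22.5% of all genes. The list was chosen after the values had been seen, so this count is a description and no test. *A. nidulans* is homothallic and carries both mating type genes in each nucleus. *MAT1* (*AN2755*) had 5.65, 5.28 and 4.77 CPM in treated cultures and 1.304, 0.509 and 0.363 CPM in untreated cultures, and *MAT2* (*AN4734*) had 25.0, 21.1 and 22.7 CPM in treated cultures and 6.52, 6.61 and 6.08 CPM in untreated cultures. Both were without overlap, at 2.93 ± 0.37 and 1.84 ± 0.18. The size of the *MAT1* change is uncertain, since its untreated libraries had 1.304 CPM or less. *ppgA* (*AN5791*), for the pheromone precursor, had 155, 158 and 171 CPM in treated cultures and 41.0, 45.9 and 41.3 CPM in untreated cultures, and *preA* (*AN7743*), for a pheromone receptor, had 28.2, 29.3 and 25.0 CPM in treated cultures and 5.10, 4.66 and 4.08 CPM in untreated cultures. The log2 fold changes were 1.91 ± 0.10 for *ppgA* and 2.58 ± 0.15 for *preA* (edgeR, adjusted p = 1.73e-09 and 8.35e-09). The second receptor gene, *preB* (*AN2520*), had 12.0, 11.6 and 10.6 CPM in treated cultures and 12.3, 10.8 and 15.4 CPM in untreated cultures, with overlap, and did not pass the test at -0.17 ± 0.16.

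**Figure D4:**
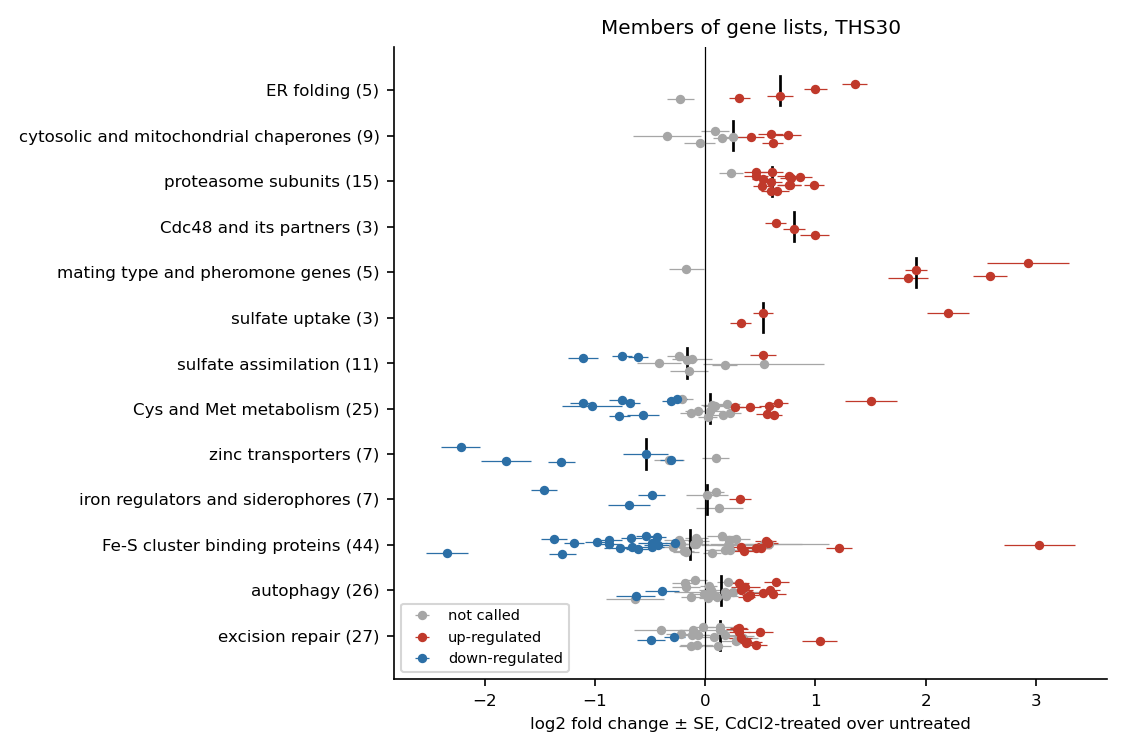
Log2 fold change with its standard error (x axis, CdCl2-treated over untreated THS30) of each tested member of 13 gene lists (rows, number of members in brackets), coloured by call, with the median of each list as a black bar. All proteasome and Cdc48 genes lie right of 0, 1 member each of endoplasmic reticulum folding and of the zinc transporters lies on the other side of 0 from the rest of its list, and sulfate assimilation and iron-sulfur genes lie on both sides.

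Lists of defence and repair genes are to be read against the 22.5% of all genes that rose and the 21.5% that fell. Of 30 antioxidant enzyme genes, 5 rose and 7 fell, at a median of -0.02, shares near those of all genes. The rises numbered 3 without treated replicate 1, treated replicate 2 or untreated replicate 2. Among 5 catalase genes, *catB* (*AN9339*), for the main mycelial catalase, rose at 0.32 ± 0.11 and *catC* at 0.41 ± 0.12, while the catalase-peroxidase gene *cpeA* (*AN7388*) had 15.03, 15.8 and 15.6 CPM in treated cultures and 42.6, 44.6 and 46.0 CPM in untreated cultures, without overlap, and fell at -1.52 ± 0.14. The call of *catB* was lost in 4 of the 6 fits without 1 THS30 library, and that of *catC* without treated replicate 2 (edgeR, adjusted p = 0.0558). Of 26 autophagy genes, 9 rose and 2 fell, with a median of 0.14, and 1 fell in 5 of the 6 fits without 1 THS30 library. The largest rises were those of *atg11*, *AN2076* and *atgH* at 0.65 ± 0.11, 0.61 ± 0.12 and 0.59 ± 0.09. Of 27 excision repair genes, 9 rose and 2 fell, at a median of 0.14, and the rises numbered 5 without treated replicate 1 and 4 without treated replicate 2 or untreated replicate 3. Among them was *rad14*, for a damage recognition protein in yeast, at 1.04 ± 0.16. In 55 genes of other DNA repair, 10 rose and 11 fell, again near the shares of all genes. The rises numbered 6 without treated replicate 2, untreated replicate 2 or untreated replicate 3, and 17 with library totals, and the falls 7 with library totals or without untreated replicate 2.

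Of 20 phosphorelay genes, 2 rose and 6 fell, beside 22.5% and 21.5% of all genes, with a median of -0.10, and the histidine kinase genes *hk-8-1* and *phkB* fell most, at -0.81 ± 0.11 and -0.73 ± 0.10. Of 6 stress kinase and transcription factor genes, none rose and 3 fell. *sakA* (*AN1017*), for the stress-activated MAP kinase, had 234, 232 and 272 CPM in treated cultures and 500.3, 434 and 386 CPM in untreated cultures, without overlap, and a log2 fold change of -0.84 ± 0.10. *atfA* and *mpkC* fell at -0.46 ± 0.10 and -0.46 ± 0.13. Of 8 genes of the cell wall integrity pathway 2 rose and 2 fell, each count dropping to 1 in 3 of the 6 fits without 1 THS30 library. Among cell wall genes, 2 of 21 biosynthesis genes rose and 7 fell, again beside 22.5% and 21.5% of all genes. The 2 rises became 1 when any 1 of the treated replicates or untreated replicate 2 was left out or without a filter on low counts, and 4 with a replicate block. In this list the mixed-linkage glucan synthase gene *celA* (*AN8444*) rose most, with 50.1, 44.3 and 39.7 CPM in treated cultures and 11.6, 16.5 and 13.9 CPM in untreated cultures and 1.66 ± 0.15 on the log2 scale. *AN3883*, a putative glucanase gene among 29 cell wall hydrolysis genes with 5 rises and 7 falls, had 22.1, 18.5 and 13.8 CPM in treated cultures and 1.42, 1.53 and 1.72 CPM in untreated cultures, a log2 fold change of 3.53 ± 0.22, and missed the 15 largest rises only because its mean was under 10 CPM.

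The 10 largest rises and 10 largest falls of THS30 were also set against the response of TNJ92. Of these 20 genes, 18 were called in TNJ92 with the same sign. The share of all tested genes called in TNJ92 was not counted, so the 18 describe these genes only. The responses of the strains differed for 4 of the 20 genes, beside 26.7% of all tested genes whose responses differed. The 20 were chosen by their THS30 fold changes, and the differences use the same THS30 libraries. The choice thus favours differences towards a smaller response in TNJ92. *AN0656* rose more in TNJ92, with 170, 193 and 148 CPM in treated against 1.75, 3.59 and 3.38 CPM in untreated cultures of that strain. Its log2 fold change was 5.87 ± 0.32 in TNJ92 and 2.98 ± 0.32 in THS30, and the difference of 2.89 ± 0.48 passed the test (edgeR, adjusted p = 0.00129). *AN6669* fell less in TNJ92, with -1.76 ± 0.35 there and -3.54 ± 0.36 in THS30 (difference 1.79 ± 0.48, edgeR, adjusted p = 0.0252). Its libraries had 52.5, 25.2 and 29.4 CPM in treated and 107, 115 and 140 CPM in untreated TNJ92. *AN5373* had -0.86 ± 0.31 in TNJ92 and -2.47 ± 0.32 in THS30 (difference 1.61 ± 0.45, edgeR, adjusted p = 0.0196).

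*AN10325* was almost without reads in TNJ92, with 4, 1 and 3 counts in treated and 1, 0 and 7 counts in untreated cultures. The difference of its responses passed the test (edgeR, adjusted p = 0.0152) but not without TNJ92 untreated replicate 3 (adjusted p = 0.620). *AN7116*, with 1, 1 and 1 counts in treated and 0, 0 and 1 counts in untreated TNJ92, had too few reads there for its response to be compared. *crdA* was at -4.09 ± 0.25 in TNJ92 and -4.12 ± 0.25 in THS30, and the difference of 0.03 ± 0.33 did not pass the test (edgeR, adjusted p = 0.954).

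**Figure D5:**
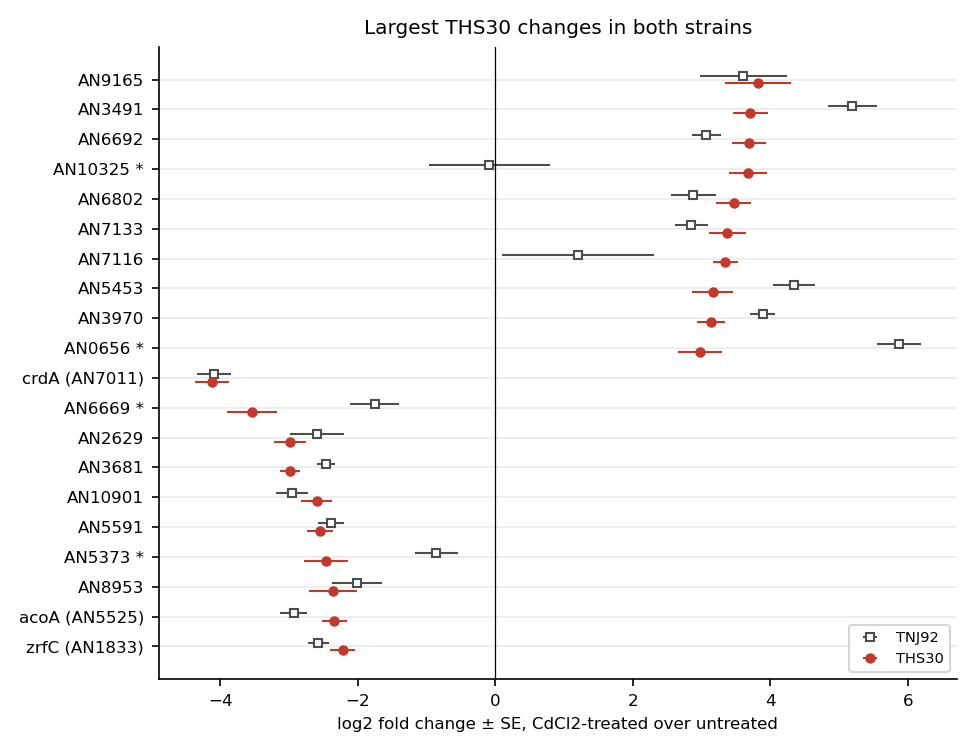
Log2 fold change with its standard error (x axis, CdCl2-treated over untreated) in TNJ92 (open squares) and THS30 (filled circles) for the 10 largest rises and 10 largest falls of THS30, with an asterisk where the responses differed at an adjusted p under 0.05. The 4 marked genes are *AN10325*, *AN0656*, *AN6669* and *AN5373*, and the squares of *AN10325* and *AN7116* rest on 7 or fewer counts per library.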

How the data were processed

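The authors sequenced TruSeq mRNA libraries of total RNA as single 75-base reads, aligned them with HISAT2 2.1.0 (submitters' processing notes) to the AspGD genome of strain FGSC A4 and deposited gene counts, RPKM values and transcript lengths for 10988 features. Neither the program that counted reads nor its strand setting was given in the sources used. The deposited RPKM equals the deposited count divided by transcript length and library total.

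Genes were tested with edgeR 4.0.16 (R 4.3.3, limma 3.58.1) by the quasi-likelihood test on the deposited counts, after filterByExpr with a count minimum of 10 and TMM scaling, in 1 model of the 4 groups over 12 libraries, with Benjamini-Hochberg adjustment over 9070 genes and a threshold of 0.05. The difference between strains was the interaction term of that model, adjusted over the same genes. DESeq2 1.42.0, other scalings, no filter, a replicate block and leaving out each library were alternatives. The fit was tested on simulated data. CPM and RPKM printed here are TMM-scaled.

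Named genes were the 15 largest rises and falls at a mean of at least 10 CPM without overlap, the 12 largest rises and falls in RPKM, the 10 most abundant transcripts of each condition, the 3 largest low-level changes in each direction, and members of gene lists, of which 15 identifiers could not be matched and were left out. All members and lists were chosen with earlier results of these data known. Symbols came from the study's supplement and RefSeq (assembly ASM1142v1). The labels call the samples biological replicates.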

Additional observations from a re-analysis of the deposited data

Results flagged for a closer look

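The responses of TNJ92 and THS30 differed past the test for 4 of the 20 genes compared, which were chosen by their THS30 fold changes. For *AN10325* the difference (TNJ92 minus THS30, log2 scale) was -3.76, with 7 counts or fewer in any TNJ92 library. For *AN0656* it was 2.89, past the test in 16 of 16 alternative settings. For *AN6669* it was 1.79, past the test in 12 of 16, and it was lost when replicate 2 of CdCl2-treated THS30, replicate 3 of untreated THS30, or either replicate 1 or replicate 2 of untreated TNJ92 was left out (edgeR, adjusted p = 0.0521 to 0.0628). For *AN5373* it was 1.61, past the test in 14 of 16 and lost without THS30 CdCl2-treated replicate 1 or 2.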

How the results depend on the processing

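Across the alternatives in scaling, filter, tool and samples, the number of rises lay between 1600 (without treated replicate 1) and 2776 (library totals), and that of falls between 1347 (library totals) and 2297 (without treated replicate 3). Leaving out 1 THS30 library gave 1600 to 1850 rises and 1523 to 2297 falls. With a minimum log2 fold change of 1, 425 rises and 287 falls were called. Of 235 named genes, 201 kept direction and call under every alternative. *pdcA* (*AN4888*), which did not pass the test, ranged from -0.040 (without treated replicate 3) to 0.22 when libraries were left out, and was called with library totals. *AN4517*, which did not pass the test either, turned to 0.034 with library totals.

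Deviations from the group mean of same-numbered treated and untreated THS30 libraries had r = 0.18, -0.13 and 0.10. Differently numbered libraries had r of -0.22 to 0.16. The labels do not say whether the numbers mark pairs, and so few correlations cannot decide it. With the replicate number as a block, 2104 rises and 2084 falls were called, and 8 instead of 4 of the 20 genes differed between strains. That count was 2 to 7 when 1 library was left out. The cause was not tested.

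With 3 libraries per group, precision is limited, also for genes under 10 CPM. It was not compared between levels of expression.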

Other observations

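Secondary metabolite cluster genes other than those of the inp cluster were described by counts only. Of 452 listed cluster genes, 277 passed the filter on low counts and were tested. Of these 277, 65 rose and 50 fell, near the 22.5% and 21.5% of all tested genes, with a median log2 fold change of 0.07. All 3 genes of the microperfuranone cluster fell, at a median of -0.91, and 4 of 6 genes of the *AN1242* cluster fell, with none rising and a median of -0.44.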
